A study of Mus musculus with 4 samples.

Results

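The transforming growth factor beta (TGF-beta) genes described here are 10 genes chosen by name: the ligand genes Tgfb1, Tgfb2 and Tgfb3, the receptor genes Tgfbr1, Tgfbr2 and Tgfbr3 with the coreceptor gene Eng, the latency protein genes Ltbp1 and Ltbp2, and Inhba, which encodes a subunit of activin A. The platform annotation gave 23 of the 45037 probe sets to these genes alone, and all 10 were among the 18193 genes measured. For each gene the brightest probe set, by its mean over the 4 arrays, stands for the gene, and the others are given beside it. None of the 10 representative probe sets had a mean under 5.95, the median of all probe sets, so no member was left out as dim, while 7 of the 23 probe sets did.

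Expression was measured on 4 Affymetrix arrays in cells from tumour-draining lymph nodes of female SCID/NOD mice, an immunodeficient strain, aged 6 to 8 weeks. Mice carried subcutaneous tumours of the left flank grown from the human embryonic kidney line 293, either 293-VEGF-D cells, which overexpress the lymphatic growth factor VEGF-D and are called metastatic in the labels, or 293-Apex cells, called non-metastatic. The left axillary node was collected at tumour volumes of 1600 to 2500 mm3, which took 3 to 4 weeks, and nodes of 1 to 5 mice made up each preparation. Nodes of the metastatic group were used only when visibly enlarged. All preparations were digested, held briefly in the endothelial medium EGM-2 MV and then enriched immunomagnetically for podoplanin, which lymphatic endothelium and reticular fibroblasts both carry. Each group held 2 preparations, named biological replicates in the labels, with 1 array each. The sorting label reports removal of tumour cells and leukocytes before culture in the metastatic group and no such removal in the non-metastatic group, whereas the growth protocol describes it without naming a group. Metastasis, VEGF-D overexpression, node enlargement and this removal go together and cannot be told apart. The number of arrays limits the precision, and in such bulk RNA fewer cells of a type and less RNA per cell cannot be told apart.

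The 3 TGF-beta ligands are secreted as inactive complexes, held by their own propeptide and by latent TGF-beta binding proteins that anchor them in the extracellular matrix. Once released, a ligand binds the type II receptor TGFBR2, which phosphorylates the type I receptor TGFBR1, and this in turn activates the transcription factors SMAD2 and SMAD3. Betaglycan (Tgfbr3) and endoglin (Eng) are coreceptors, the latter abundant on endothelium. In stroma the pathway is known for driving matrix production and contractile genes, and in lymphatic endothelium for restraining vessel growth.

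Among the members, Tgfb2, Tgfb3, Eng and Inhba had lower signals on both metastatic arrays than on both non-metastatic arrays, Tgfb1 and Tgfbr3 had higher ones, and Tgfbr1, Tgfbr2, Ltbp1 and Ltbp2 overlapped between the groups. The 4 members that were lower without overlap stand beside 17.3% of all genes, the 2 that were higher beside 17.2%, and the 6 together beside 34.6%. Of the 23 probe sets, 8 were lower without overlap, beside 16% of all probe sets, and 7 higher, beside 18.5%. No member passed limma with Benjamini-Hochberg adjustment over all probe sets at 0.05 (0 of 45037 probe sets and 0% of genes were called). At an unadjusted p under 0.05 there were 4 members, Tgfb2, Tgfb3 and Eng lower and Tgfb1 higher, against 6.7% of all genes (4.07% lower and 2.63% higher). The median difference over the members was -0.16 on the log2 scale, and over all genes it was -0.00034. Every difference below is metastatic minus non-metastatic on the log2 scale after quantile normalization, with limma's moderated standard error (SE). The plot of log2 signals by array shows each member.

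**Figure D1:**
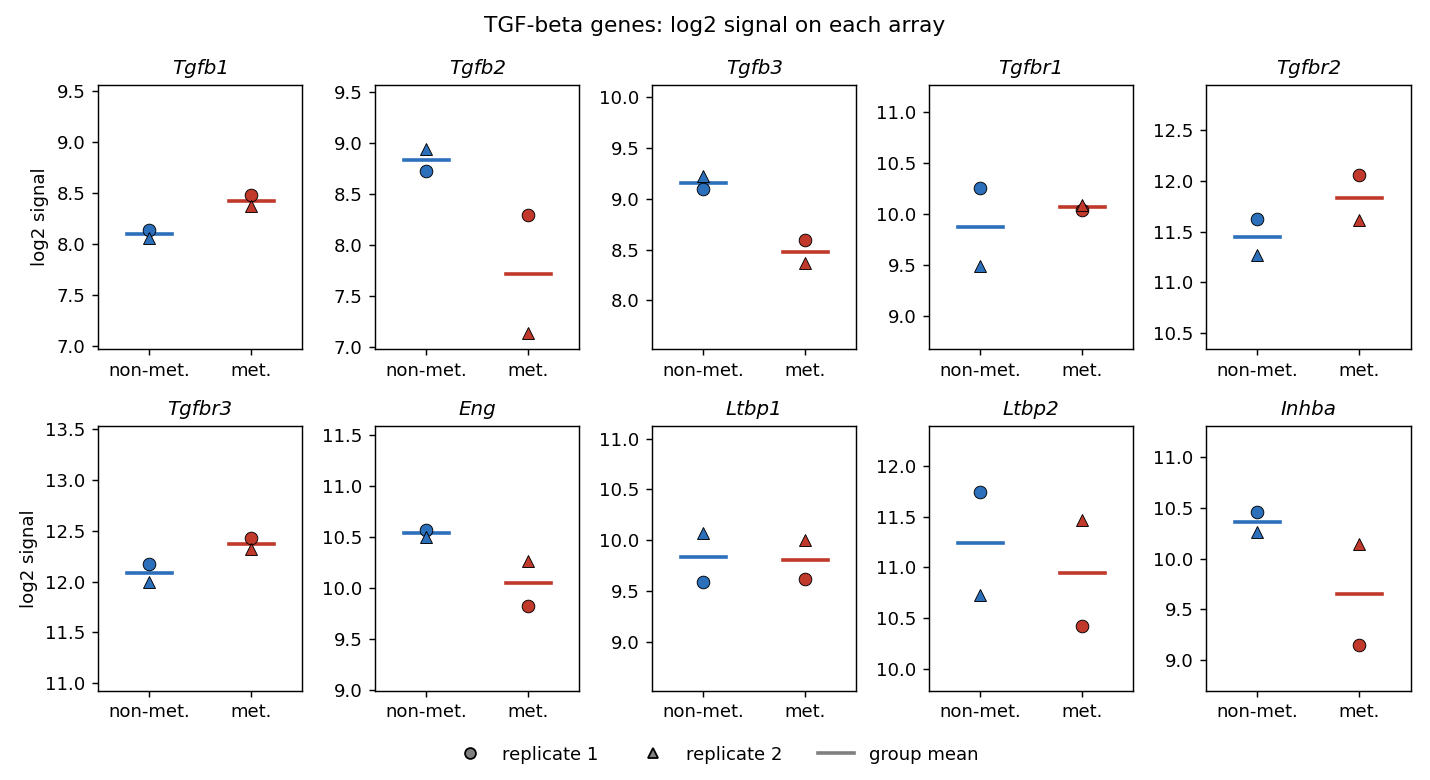
Log2 signal of the 10 TGF-beta genes on each of the 4 arrays. Each panel spans the same height in log2 units; circles are replicate 1, triangles replicate 2 and bars group means. Tgfb3 and Tgfb1 show close replicates and separate groups, at metastatic against non-metastatic means of 8.48 against 9.16 and 8.42 against 8.10. The arrays of Ltbp2 lie further apart within each group than the group means do.

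The ligand genes did not move one way. Tgfb3, which encodes the isoform known for its part in palate closure, had log2 signals of 8.59 and 8.37 on metastatic arrays 1 and 2 and of 9.09 and 9.22 on non-metastatic arrays 1 and 2. Both metastatic values lay below both non-metastatic ones, by at least 0.50. The difference was -0.68 (SE 0.13, 95% interval -1.0 to -0.36), a 1.60-fold lower signal that did not pass (limma adjusted p = 0.383). By its unadjusted p Tgfb3 ranked 140 of 18193 genes, the lowest rank number of the members, and with each array left out in turn its difference stayed between -0.79 and -0.57. It has only 1 probe set, so no other probes of the array bear on this value.

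Tgfb2 encodes the isoform that depends most on betaglycan for binding to the type II receptor. Its signals were 8.29 and 7.13 on the metastatic arrays and 8.72 and 8.95 on the non-metastatic ones. The groups did not overlap, but metastatic replicate 2 alone was far lower than the rest, and the 1.16 log2 units between the metastatic replicates exceeded the distance between them for 98.9% of genes. The mean difference was the largest of the members, -1.13 (SE 0.36, 95% interval -2.03 to -0.22; limma adjusted p = 0.703), or 2.18-fold. Without metastatic replicate 2 it was -0.55, and without metastatic replicate 1 it was -1.68. All 4 probe sets of Tgfb2 were lower without overlap, with differences of -1.13, -1.06, -0.83 and -0.77. They measure the same RNA, and 3 of them are annotated with the same accession. The dimmest, with a mean signal of 5.52, had the closest replicates: 5.29 and 4.99 in the metastatic group and 5.85 and 5.96 in the non-metastatic group (difference -0.77, SE 0.14, limma adjusted p = 0.383).

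Tgfb1, the isoform most tied to immune regulation and fibrosis, had signals of 8.48 and 8.37 on the metastatic arrays and of 8.14 and 8.06 on the non-metastatic ones. Here both metastatic arrays were the higher ones, with replicates 0.10 apart in the metastatic and 0.078 apart in the non-metastatic group. The difference was 0.32 (SE 0.11, 95% interval 0.047 to 0.60; limma adjusted p = 0.740), or 1.25-fold, and ranged from 0.27 to 0.38 with an array left out. The other probe set of Tgfb1 was dim (mean 5.17) and had a difference of -0.018 (SE 0.15), and with both probe sets averaged the difference was 0.15. Relative to Tgfb3 on the same array, Tgfb1 was thus higher in the metastatic group by 1.00, and relative to Tgfb2 by 1.45. Both ratios were bound to separate the groups, since the single genes already did so in opposite directions. These shifts, between genes paired after their values were known, were not tested.

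Promoter sequences are shown for Tgfb1, Tgfb2 and Eng, members whose groups did not overlap and which went in different directions. They are the 250 bases before the RefSeq start of each gene in GRCm38.p6, on the gene's strand: chr7:25686752-25687001 (plus) for Tgfb1, chr1:186705990-186706239 (minus) for Tgfb2 and chr2:32646345-32646594 (plus) for Eng. Capitals mark matches on either strand to TATAAA (the TATA box), GGGCGG (the GC box bound by SP1), CAGAC (a SMAD-binding motif) and TGACG (part of the cAMP response element); no capital in these 3 sequences belongs to more than 1 motif.
Tgfb1: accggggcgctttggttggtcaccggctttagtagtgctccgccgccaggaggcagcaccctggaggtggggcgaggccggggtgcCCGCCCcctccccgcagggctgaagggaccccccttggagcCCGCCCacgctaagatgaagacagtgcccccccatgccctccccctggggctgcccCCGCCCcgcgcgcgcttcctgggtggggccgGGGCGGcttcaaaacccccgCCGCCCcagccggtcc
Tgfb2: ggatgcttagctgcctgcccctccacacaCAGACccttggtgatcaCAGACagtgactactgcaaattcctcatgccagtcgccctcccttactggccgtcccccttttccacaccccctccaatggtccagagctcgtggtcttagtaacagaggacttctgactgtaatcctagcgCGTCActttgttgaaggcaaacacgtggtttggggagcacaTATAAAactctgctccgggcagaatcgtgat
Eng: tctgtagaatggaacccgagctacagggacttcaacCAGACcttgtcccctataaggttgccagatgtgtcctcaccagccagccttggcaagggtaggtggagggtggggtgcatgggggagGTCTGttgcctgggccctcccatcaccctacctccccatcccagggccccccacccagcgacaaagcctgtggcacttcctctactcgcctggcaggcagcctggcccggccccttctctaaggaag
The Tgfb1 promoter holds 5 GC boxes, 21 CpG dinucleotides and no match to the other motifs, and is 75.2% G or C, against a median of 52.4% over 32851 promoter windows of that length. In that of Tgfb2, with 53.6% G or C and 8 CpGs, there are a TATA box whose first base lies at position -31 from the start, 2 CAGAC matches, 1 TGACG match on the opposite strand and no GC box. For Eng there are 2 CAGAC matches and 4 CpGs at 62.4% G or C. The promoter of Inhba, which was also lower without overlap, is not shown. It is 43.2% G or C and holds 1 TATAAA match at position -91 and no match to the other motifs. Among all windows 12.4% hold TATAAA, 32.7% GGGCGG, 42.2% CAGAC and 17.8% TGACG, so that CAGAC matches in particular are common. The table gave promoters for 8 of the 10 members, without Tgfb3 and Tgfbr3. These are matches of letters, and binding was not measured here.

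The receptor genes had positive differences and their coreceptor Eng a negative one. Eng had signals of 9.82 and 10.26 on the metastatic arrays and 10.57 and 10.50 on the non-metastatic ones. The difference was -0.49 (SE 0.17, 95% interval -0.91 to -0.075, limma adjusted p = 0.734). The groups did not overlap and metastatic replicate 1 was the lowest array. Without that array the difference was -0.28, and without metastatic replicate 2 it was -0.71. Its other probe set had 8.07 and 8.20 against 9.07 and 8.70, a difference of -0.75 (SE 0.16; limma adjusted p = 0.426), so both probe sets of Eng put the metastatic arrays lower. Summed linear signals of the 9 fixed markers of pan and blood endothelium were 644 and 553 on the metastatic arrays and 1042 and 841 on the non-metastatic ones. Emcn, an endothelial sialomucin singled out after its values were seen, carried most of this distance, with log2 signals of 6.50 and 5.66 against 8.77 and 8.45; without it the sums were 553 and 502 against 605 and 491 and overlapped. Of the 9 markers 5 had lower and 4 higher means, 5 were under the median of all probe sets, and 2 were lower without overlap, a share near the 17.3% of all genes. Eng had a mean of 10.29 over the 4 arrays, and Kdr, the brightest of these 9 markers, had 7.53. Which cells gave the Eng signal was not measured, and the part of the markers in its value was not tested.

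Tgfbr3 encodes betaglycan, the coreceptor that presents ligand to TGFBR2. Its signals of 12.43 and 12.32 on the metastatic arrays lay above the 12.17 and 12.00 of the non-metastatic ones, a difference of 0.29 (SE 0.12, 95% interval -0.016 to 0.59; limma adjusted p = 0.837). The less bright probe set gave a larger difference with closer replicates: 9.16 and 9.06 against 8.50 and 8.49, or 0.62 (SE 0.11; limma adjusted p = 0.367). Both probe sets were thus higher without overlap, and the difference of the brighter ranged from 0.20 to 0.38 with an array left out; averaged, they gave 0.45. Within the arrays the ratio of Tgfbr3 to Eng was higher in the metastatic group by 0.78 on the log2 scale. This ratio was bound to separate the groups, since Tgfbr3 was higher and Eng lower without overlap, and it was not tested.

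Tgfbr2, the gene of the ligand-binding type II receptor, had 12.06 and 11.61 on the metastatic arrays and 11.63 and 11.27 on the non-metastatic ones. Metastatic replicate 2 lay just under non-metastatic replicate 1, so the groups overlapped, and the difference of 0.39 (SE 0.20) did not pass (limma adjusted p = 0.897). Leaving out metastatic replicate 1 gave 0.16 and leaving out metastatic replicate 2 gave 0.60. Among the non-metastatic arrays, leaving out replicate 1 gave 0.57 and replicate 2 gave 0.21. A less bright probe set of Tgfbr2 read 8.28 and 7.76 against 7.37 and 7.20, without overlap (difference 0.73, SE 0.19; limma adjusted p = 0.586). The remaining probe set, with a mean of 3.71, had a difference of 0.16 (SE 0.11).

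Tgfbr1, the gene of the signalling type I receptor, had positive differences on all 3 probe sets, with the groups separate on the dimmer ones alone. On its brightest, signals were 10.04 and 10.09 on the metastatic arrays and 10.26 and 9.49 on the non-metastatic ones, which enclosed the metastatic values; the difference was 0.19 (SE 0.25, 95% interval -0.43 to 0.81; limma adjusted p = 0.975). The distance between the non-metastatic replicates, 0.76, exceeded that for 98.7% of genes. The difference turned to -0.19 without non-metastatic replicate 2, was 0.57 without non-metastatic replicate 1, and was 0.47 with the probe sets averaged. The other probe sets were both higher without overlap, at 6.32 and 6.38 against 5.92 and 5.48 (difference 0.65, SE 0.17; limma adjusted p = 0.561) and at 5.95 and 5.70 against 5.34 and 5.19 (difference 0.56, SE 0.14; limma adjusted p = 0.534). All 8 probe sets of the 3 receptor genes had positive differences, 0.16 to 0.73, and 6 of them did not overlap, beside 18.5% of all probe sets that were higher without overlap. Probe sets of the same gene are not independent of each other.

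**Figure D2:**
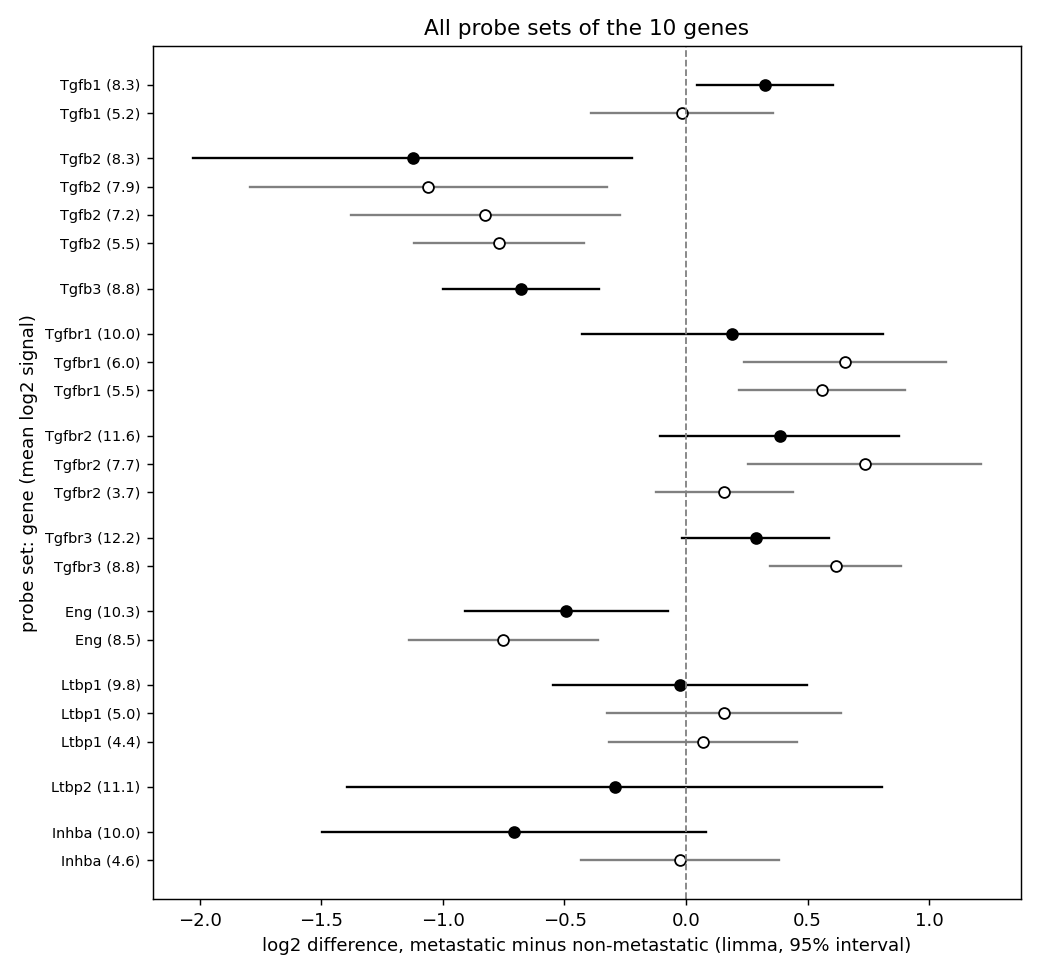
Log2 difference, metastatic minus non-metastatic, for each of the 23 probe sets of the 10 genes, with limma's 95% interval; the number after each gene is the mean log2 signal of that probe set. Filled points are the probe sets that represent the gene. The 4 probe sets of Tgfb2 and the 2 of Eng lie left of 0, and the 8 of Tgfbr1, Tgfbr2 and Tgfbr3 lie right of it.

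For the latency protein genes the arrays of a group lay further apart than the group means did, and for Inhba those of the metastatic group did. Ltbp1, whose product links latent TGF-beta to the matrix, had 9.62 and 10.00 on the metastatic arrays and 9.59 and 10.07 on the non-metastatic ones, so that replicate 1 was the lower array in each group. Its difference was -0.025 (SE 0.21, 95% interval -0.55 to 0.50; limma adjusted p = 0.997). Its sign turned in 4 of 11 alternatives, among them those leaving out metastatic replicate 1 (0.16) or non-metastatic replicate 2 (0.22). Some of the 11, such as the replicate block, leave the difference as it is and could not turn the sign. The interval reaches changes of about 0.5 in either direction, so these arrays do not show that Ltbp1 was unchanged. The 2 dimmer probe sets, with means of 4.98 and 4.41, had differences of 0.16 and 0.070.

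Ltbp2 encodes a fibrillin-associated protein of elastic fibres that, unlike LTBP1, is not known to bind latent TGF-beta. Its signals were 10.42 and 11.46 on the metastatic arrays and 11.75 and 10.73 on the non-metastatic ones. A high and a low array stood in each group, 1.04 and 1.02 log2 units apart, which exceeded the replicate distance for 98.5% and 99.3% of genes. The difference was -0.29 (SE 0.44; limma adjusted p = 0.982). Leaving out the low metastatic array (replicate 1) gave 0.23 and the high non-metastatic array (replicate 1) 0.22. Leaving out replicate 2 gave -0.82 when it was the metastatic array and -0.80 when it was the non-metastatic one.

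Inhba, the gene of the activin beta A subunit, had 9.15 and 10.15 on the metastatic arrays and 10.45 and 10.26 on the non-metastatic ones. Metastatic replicate 1 was about a log2 unit below the other arrays, and replicate 2 lay only 0.11 under the lower non-metastatic array. The difference of -0.71 (SE 0.32, 95% interval -1.50 to 0.082; limma adjusted p = 0.858) became -0.21 without metastatic replicate 1 and -1.21 without metastatic replicate 2. The other probe set was dim (mean 4.55), with a difference of -0.024 (SE 0.16), and averaged over both the difference was -0.37. Inhba and Eng were lowest on metastatic replicate 1, whereas Tgfb2 and Tgfb3 were lowest on metastatic replicate 2, as the plot with each array left out shows.

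**Figure D3:**
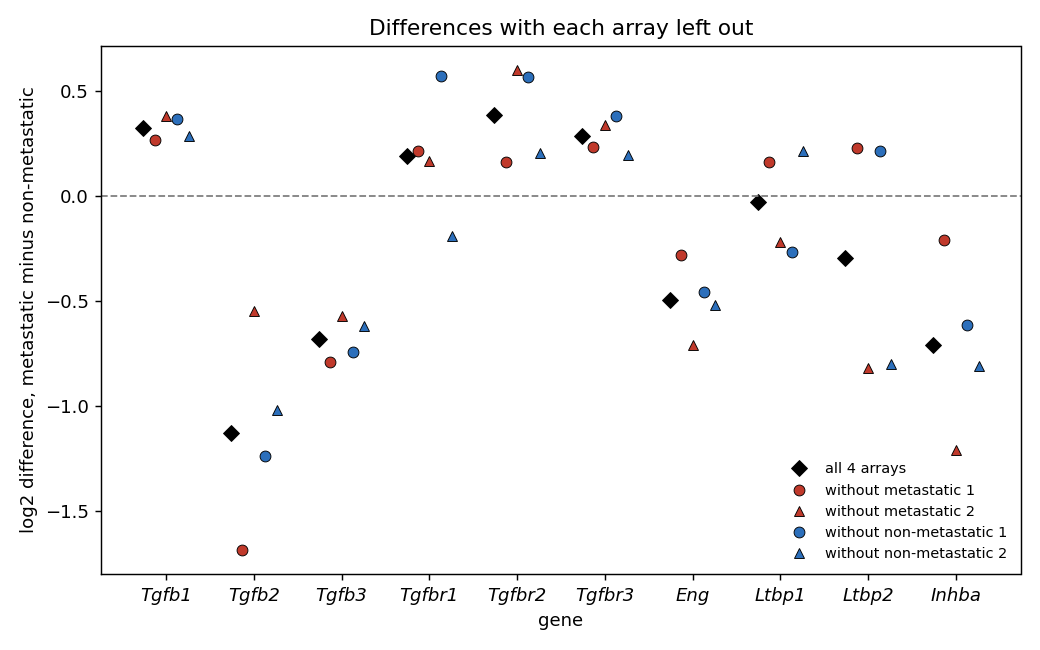
Log2 difference of each gene with all 4 arrays (diamonds) and with each array left out in turn (circles, replicate 1; triangles, replicate 2; red, metastatic; blue, non-metastatic). Tgfb3 stays between -0.79 and -0.57 and Tgfb1 between 0.27 and 0.38, while Ltbp1, Ltbp2 and Tgfbr1 have values on both sides of 0.

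Other genes of the pathway were taken from 4 lists. None of their 52 measured genes passed limma with adjustment over all probe sets (0 called; at an unadjusted p under 0.05 there were 5 lower and 4 higher, beside 4.07% and 2.63% of all genes). Among genes of latency and activation, 6 of 12 had lower and 6 higher means, with a median difference of -0.019, and 7 of the 12 differences were smaller than their own SE. The latency genes Ltbp3 and Ltbp4 had differences of -0.046 (SE 0.13) and -0.21 (SE 0.18). Of the integrin subunits that activate latent TGF-beta, Itgav and Itgb5 stood at 0.034 (SE 0.32) and -0.064 (SE 0.34), with metastatic replicate 1 the lowest and metastatic replicate 2 the highest array for both. Itgb8, dim at a mean of 5.01, had 5.01 and 4.44 against 5.40 and 5.19, a difference of -0.57 (SE 0.21; limma adjusted p = 0.772). Thbs1, the gene of the matrix protein thrombospondin 1 that can release active ligand, had 10.20 and 11.89 against 11.27 and 12.11 (difference -0.64, SE 0.57).

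Differences of the genes in the SMAD signalling list ran from -0.58 to 0.48. In the SMAD list 11 of 14 genes had higher and 3 lower means, but 10 of the 14 differences were smaller than their SE and the median was 0.062; without metastatic replicate 2 the split was 5 higher and 9 lower, and without non-metastatic replicate 2 it was 6 and 8. The receptor-activated Smad2 and Smad3 stood at 0.071 (SE 0.11) and 0.061 (SE 0.14), and their partner Smad4 had means of 10.79 in both groups. Smad7, an inhibitory SMAD induced by TGF-beta, had 8.96 and 9.55 against 9.56 and 9.55, so only metastatic replicate 1 was low (difference -0.30, SE 0.21). The feedback genes Skil and Pmepa1 stood at 0.20 (SE 0.29) and 0.010 (SE 0.31), and in both metastatic replicate 2 was the highest array. Bambi, a decoy receptor named after its value was seen, had the smallest p of this list: 7.39 and 7.22 against 7.79 and 7.99, a difference of -0.58 (SE 0.13; limma adjusted p = 0.477). Smurf2, a ubiquitin ligase that acts on SMADs and receptors, was likewise named after its value was seen, with 11.35 and 11.55 against 11.04 on both non-metastatic arrays, a difference of 0.41 (SE 0.12; limma adjusted p = 0.653).

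In the activin arm, 3 of 8 genes had lower and 5 higher means, with a median of 0.071. The groups of 4, Acvr1b, Acvr1c, Acvr2a and Inha, were separate with the metastatic arrays higher, beside 17.2% of all genes, and 0 were separate and lower. Acvr1c and Inha were dim, at means of 5.57 and 5.37, and 4 of the 8 differences were smaller than their SE. The activin antagonists Fst and Fstl3 differed between replicates more than between groups, at -0.28 (SE 0.41) and -0.081 (SE 0.37). Inhbb, the gene of the other activin beta subunit, stood at -0.16 (SE 0.14), and the receptor genes Acvr1b and Acvr2a at 0.087 (SE 0.11) and 0.31 (SE 0.17).

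**Figure D4:**
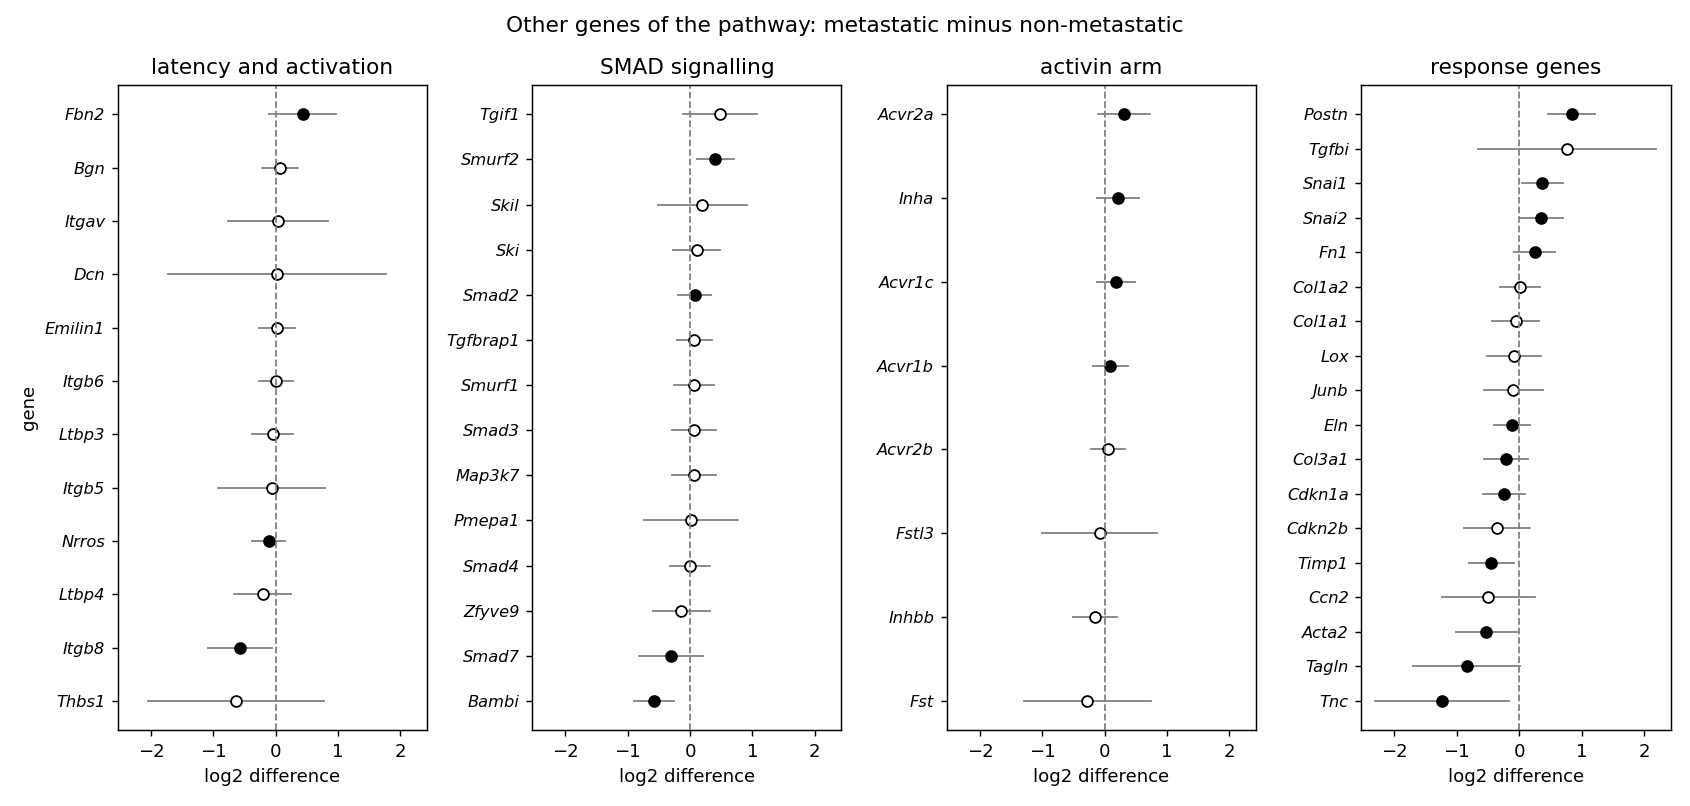
Log2 difference, metastatic minus non-metastatic, with limma's 95% interval, for the other genes of the pathway in 4 lists. Filled points mark genes whose groups did not overlap. Of the latency list 7 of 12 and of the SMAD list 10 of 14 differences are smaller than their SE, and the response genes spread from -1.23 (Tnc) to 0.84 (Postn).

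Genes known to respond to TGF-beta went both ways: 12 of 18 had lower and 6 higher means, with a median of -0.11. The groups of 7 were separate with the metastatic arrays lower, beside 17.3% of all genes, and those of 4 with the metastatic arrays higher, beside 17.2%. The matrix genes Col1a1 and Fn1 stood at -0.057 (SE 0.15) and 0.25 (SE 0.13), and the early response gene Junb at -0.094 (SE 0.19). Ccn2, the gene of connective tissue growth factor, had 12.55 on metastatic replicate 1 and 13.51, 13.50 and 13.55 on the other arrays (difference -0.49, SE 0.30). Acta2, smooth muscle actin, had 13.66 and 14.22 against 14.49 and 14.45 (difference -0.53, SE 0.20; limma adjusted p = 0.774). Tgfbi had 9.58 and 8.53 against 7.48 and 9.09, with overlap (difference 0.77, SE 0.58). The matrix genes at the ends of the list, named after their values were seen, were Tnc, with 8.26 and 9.67 against 10.25 and 10.14 (difference -1.23, SE 0.43; limma adjusted p = 0.753), and Postn, with 13.61 and 13.26 against 12.64 and 12.54 (difference 0.84, SE 0.15; limma adjusted p = 0.374).

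Tnc, Ccn2 and Acta2 were lowest on metastatic replicate 1. On that array 11 of the 18 response genes and 10 of the 14 SMAD genes lay below metastatic replicate 2, beside 53.0% of all genes, and the response list had a median distance of -0.15 between these arrays. Summed linear signals of the 8 fixed smooth muscle and pericyte markers were 17673 and 28634 on metastatic replicates 1 and 2. On the non-metastatic arrays they were 35809 and 33805. Acta2 and Tagln carried most of these sums. Without both genes the sums were 568 and 685 on metastatic replicates 1 and 2, and 1041 and 1295 on the non-metastatic arrays. Actg2, singled out after its values were seen, carried the largest part of this remaining distance, with log2 signals of 7.04 and 6.93 against 8.84 and 8.85. Of the 8 markers 7 had lower means, and 6 were lower without overlap, beside 17.3% of all genes. The marker and response lists share genes, 5 of the response genes being markers as well (Acta2 and Tagln of smooth muscle among them), and the part of contractile cells in these values was not tested.

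**Figure D5:**
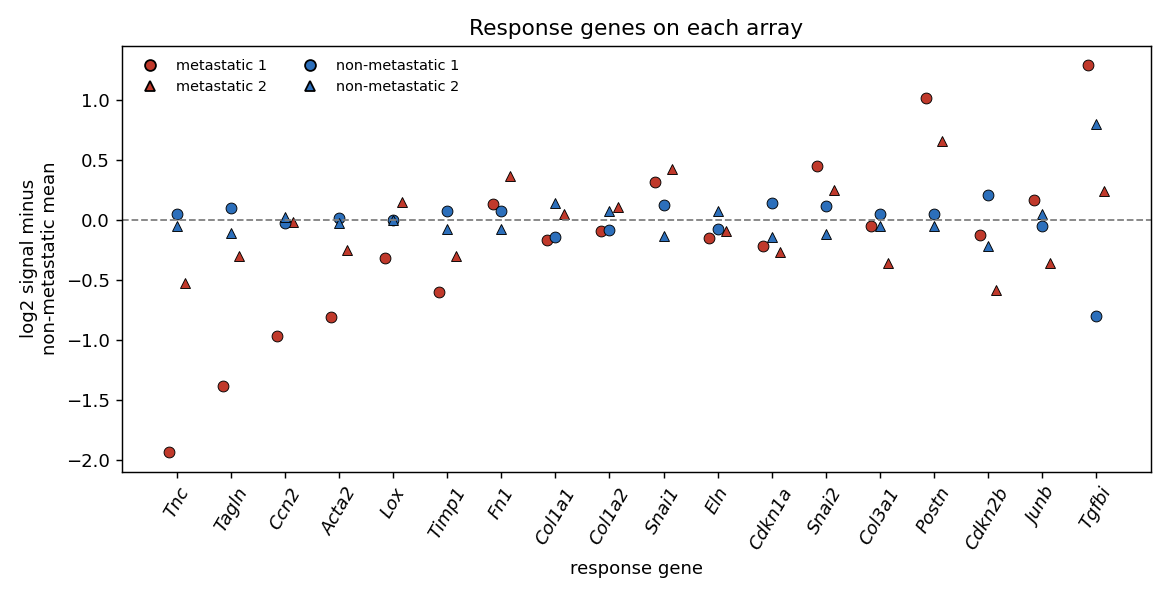
Log2 signal of 18 TGF-beta response genes on each array, minus the mean of the non-metastatic arrays, ordered by the distance between metastatic replicates 1 and 2. Metastatic replicate 1 (red circles) is the lowest array for Tnc, Tagln, Ccn2 and Acta2, and both metastatic arrays lie above both non-metastatic arrays for Postn.

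The labelled endothelial fraction was checked against markers. Of the fixed markers, 3 of 6 lymphatic (Prox1, Reln and Mmrn1) and 5 of 9 endothelial genes (Pecam1, Cdh5, Tie1, Cldn5 and Vwf) had means under the median of probe sets, Prox1 at 4.00 and Pecam1 at 4.94. Above it lay Kdr at 7.53, Emcn at 7.35, Lyve1 at 6.65, Flt4 at 6.35 and Erg at 6.03, among others. Of 8 fibroblast and reticular genes only Lum, at 5.23, was under it, and Col1a1, Pdgfra and Pdgfrb had 13.74, 12.26 and 12.27. Summed linear signals over 8 fibroblast and reticular markers were 59587 to 62274 in the metastatic and 59714 to 64445 in the non-metastatic group, over 6 lymphatic markers 2002 to 2146 and 1674 to 1799, over 8 leukocyte markers 1020 to 1214 and 1566 to 1662, and over 6 epithelial and mesothelial markers 812 to 1350 and 1003 to 1364. The lymphatic sum was carried by Pdpn, which encodes podoplanin, the selection marker itself. Without Pdpn the direction turned, to 248 and 177 on the metastatic against 498 and 370 on the non-metastatic arrays. Lyve1 carried most of this distance, with log2 signals of 6.32 and 4.23 against 8.26 and 7.80. Of the 6 lymphatic markers 4 had lower and 2 higher means. Without overlap 1 was lower and 2 were higher, beside 17.3% and 17.2% of all genes. Among leukocyte markers 5 had lower and 3 higher means and 4, Ptprc included, were under the median of probe sets; without Csf1r and Lyz2 the sums were 367 and 335 against 407 and 376.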

How the data were processed

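The authors deposited log2 signals for each probe set, a scale read from their range (3.10 to 14.87). Per the labels' protocols, biotin-labelled cRNA was made from 3 ug of total RNA, and 20 ug of it was fragmented. How probes were summarised or arrays normalized was not given in the sources used here. Control probe sets (64) were left out, the 4 arrays were quantile normalized because their medians differed by 0.116, and limma (lmFit and eBayes) compared metastatic with non-metastatic arrays over 45037 probe sets without a filter, with 2 residual and 3.71 prior degrees of freedom and Benjamini-Hochberg adjustment. A probe set was called at an adjusted p under 0.05. Groups came from the sample titles.

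Symbols were updated through Entrez numbers for 34741 of 34945 probe sets with 1 gene; 932 had several genes and 9160 none. The members and lists were chosen with earlier results of these data known. The text names all members and a subset of each list fixed by name, and says where a gene was added. Promoters came from RefSeq (GRCm38.p6). Replicate numbers pair no samples in the labels. The scripts were tested on simulated data. Alternatives were the deposited values, median centring, brighter probe sets, trended robust moderation, the replicate block, a 1 log2 unit minimum, other choices of probe set, and each array left out. R 4.3.3, limma 3.58.1, Python 3.11.15 and matplotlib 3.10.9 were used.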

Additional observations from a re-analysis of the deposited data

How the results depend on the processing

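No member was called under any alternative run (limma, Benjamini-Hochberg), and Tgfb1, Tgfb2, Tgfb3, Tgfbr2, Tgfbr3, Eng and Inhba kept their direction in all 11. Several of these alternatives could not turn a direction. Brighter probe sets, trended robust moderation, the replicate block and avoiding probe sets marked _s_at or _x_at left every member's difference unchanged. For members without overlap, leaving out an array could turn the direction only through the renewed normalization. Ltbp1 turned to 0.010 with median centring and to 0.067 with probe sets averaged per gene, and ranged from -0.27 to 0.22 with an array left out; Ltbp2 ranged from -0.82 to 0.23 and Tgfbr1 from -0.19 to 0.57, and the cause was not tested. With probe sets averaged, 4 members were higher and 3 lower without overlap, against 2 and 4 in the main comparison. With an array left out, 2 to 4 were higher and 4 to 6 lower. There 1 array stands against 2, which separate more easily than 2 against 2. The shares over all genes were not counted under these settings, so no change is read from these counts. Averaging also moved Tgfb1 to 0.15, Tgfbr1 to 0.47, Tgfbr3 to 0.45 and Inhba to -0.37. Over all probe sets, calls numbered 0 in the main comparison (2731 at an unadjusted p under 0.05), 5 with trend and robust moderation, and 0 to 65 with an array left out, the 65 being without metastatic replicate 1. With the replicate number as a block there were 145 calls (120 lower, 25 higher) and 0 members; same-numbered arrays deviated together with r = 0.25 over probe sets, but with 2 numbers and no stated pairing they share only a number. With an array left out, 1 residual degree of freedom remains and the lone array is assumed to vary like the other group. Signal near background limits the 7 dim probe sets, for which no detection calls were used.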
